A study of Mus musculus with 16 samples.

Results

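The junction genes described here are 7 genes whose products join the oocyte to the granulosa cells around it: the connexins Gja4, Gja1 and Gjc1, the cadherins Cdh1 and Cdh2, the catenin Ctnnb1 and the scaffold protein Tjp1. They were chosen by name, and all 7 were found among the 25965 gene rows of the RNA-seq table. The samples were wild-type C57BL/6 mouse oocytes (substrain C57BL/6Babr), sorted by diameter into 4 classes (10–30 µm, 40–45 µm, 50–55 µm and then 60–65 µm) with 2 RNA libraries each, plus 1 library of fully grown germinal vesicle (GV) oocytes. DNA methylation had been measured by reduced representation bisulphite sequencing (RRBS, 2 libraries in each of the 3 larger classes) and by post-bisulphite adapter tagging (PBAT, 1 library of 60–65 µm oocytes). No group carried a transgene or a treatment. The smaller classes came from younger pre-pubertal ovaries than the larger ones, so that diameter and age of the animal cannot be told apart, and each library was made from pooled oocytes freed of somatic cells by enzymatic digestion, picking and washing. No label ties a library to an animal or a collection day, so that the p-values below measure the spread between libraries, which may be technical.

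In the growing follicle the oocyte depends on the granulosa cells for small metabolites and for signals that hold it in meiotic arrest. These pass through gap junctions, channels that each of the joined cells builds from connexins in its own membrane. Connexin 37 (Gja4) is the classical connexin of the oocyte side and connexin 43 (Gja1) that of the granulosa cells. Cadherins hold the membranes together from outside the cell, E-cadherin (Cdh1) on the oocyte and N-cadherin (Cdh2) mainly on granulosa cells; β-catenin (Ctnnb1) ties their tails to the cytoskeleton, and ZO-1 (Tjp1) is a scaffold for tight and gap junctions. The comparison of Gja4 with Gja1 therefore also serves as a check on granulosa RNA in the oocyte libraries. It gives no amount of such RNA, since the series has no granulosa library and the ratio also moves with Gja4.

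RefSeq promoter windows (GRCm38.p6, 250 bases before to 50 bases after the start) were found for 4 of the 7 genes. Those of Gja4, Gja1 and Tjp1 are printed because they differ in CpG content, which sets where methylation can be read. Each is written 5′ to 3′ on the strand of the gene, with every CpG in capitals. The Gja4 window lies at chr4:127313990-127314289 on the minus strand, the Gja1 window at chr10:56377050-56377349 on the plus strand and the Tjp1 window at chr7:65371195-65371494 on the minus strand.
Gja4: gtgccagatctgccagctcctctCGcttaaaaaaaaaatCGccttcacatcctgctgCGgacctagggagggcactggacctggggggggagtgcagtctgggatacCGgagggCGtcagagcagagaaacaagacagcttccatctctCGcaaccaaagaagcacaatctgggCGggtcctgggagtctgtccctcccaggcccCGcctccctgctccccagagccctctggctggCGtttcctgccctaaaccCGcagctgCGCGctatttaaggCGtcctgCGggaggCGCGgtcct
Gja1: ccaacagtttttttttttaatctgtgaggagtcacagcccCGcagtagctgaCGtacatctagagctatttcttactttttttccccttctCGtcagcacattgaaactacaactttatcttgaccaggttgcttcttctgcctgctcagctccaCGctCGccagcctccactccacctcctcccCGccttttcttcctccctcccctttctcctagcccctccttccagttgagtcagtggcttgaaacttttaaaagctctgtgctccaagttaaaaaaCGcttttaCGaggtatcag
Tjp1: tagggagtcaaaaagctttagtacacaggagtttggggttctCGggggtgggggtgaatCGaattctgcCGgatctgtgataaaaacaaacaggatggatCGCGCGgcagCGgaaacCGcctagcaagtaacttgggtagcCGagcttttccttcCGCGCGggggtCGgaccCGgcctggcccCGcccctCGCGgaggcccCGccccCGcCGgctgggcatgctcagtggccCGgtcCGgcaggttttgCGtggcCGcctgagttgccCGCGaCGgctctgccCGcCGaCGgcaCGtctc
The Gja4 window holds 16 CpGs, the Gja1 window 8 and the Tjp1 window 31, against a median of 7 over all 32851 windows. At least as many CpGs stood in 33.0% of all windows for Gja4, 48.6% for Gja1 and 10.6% for Tjp1. The letters CANNTG, an E-box read the same way on both strands, occurred once in the window of each connexin and not in that of Tjp1; 72.3% of all windows held them. TATAAA, searched on both strands, was in none of the 3 windows and in 13.6% of all windows.

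RNA levels are given as RPKM, reads per kilobase of exon scaled to the depth of the library, a unit that corrects for gene length and so lets genes be compared. The growing libraries held 28764063 to 52271048 reads in genes and the GV library 63552690, recovered from the steps between low RPKM values. Oocyte markers were high in every library, with Gdf9, the oocyte growth factor, at 419 to 580 RPKM. The zona pellucida genes Zp2 and Zp3 were at 620 to 1118 and 595 to 962 RPKM in the growing classes, and the 14 oocyte markers together were at 3365 to 4335 RPKM in the growing classes. From 10–30 to 60–65 µm 4 of the 14 markers rose, 5 fell and 5 did not pass (limma). Of all genes tested 32.4% rose and 63.3% changed in either direction. In bulk libraries of this kind fewer cells of a type and less RNA per cell cannot be told apart.

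The 7 genes fell into 2 sets by level. Gja4, Ctnnb1, Cdh1 and Tjp1 were above 3 RPKM in all 9 libraries, whereas Gjc1, Cdh2 and Gja1 were below 0.5 RPKM in all 9. Averaged over the 8 growing libraries the order was Gja4 (67.5 RPKM), Ctnnb1 (23.8), Cdh1 (8.27), Tjp1 (6.79), Gjc1 (0.332), Cdh2 (0.181) and Gja1 (0.0848). Most neighbours in this order were separated in every library, but a pair crossed in each set. Tjp1 was higher than Cdh1 in both 10–30 µm libraries and lower from 50 µm onwards, and Gjc1 was higher than Cdh2 up to 50–55 µm and lower at 60–65 µm.

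**Figure D1:**
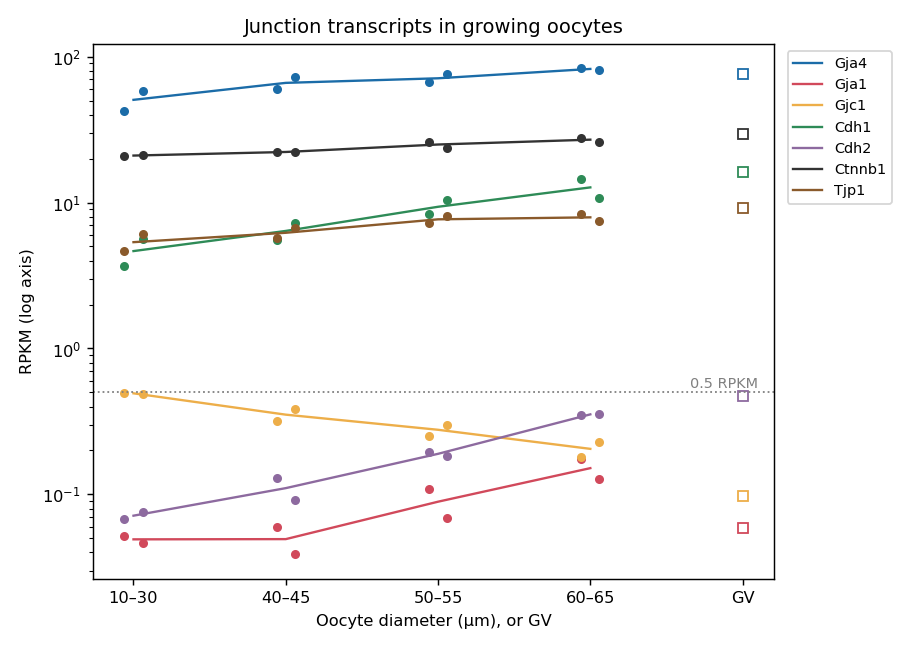
RPKM of the 7 junction genes (log axis) against oocyte diameter class in µm; filled points are single libraries, lines join the means of 2 libraries, open squares are the single GV library and the dotted line is 0.5 RPKM. Gja4 stays at the top (42.6 to 83.2 RPKM), Gja1, Cdh2 and Gjc1 stay below the dotted line, and Gjc1 falls while Cdh2 rises to cross it.

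Gja4 was among the most abundant transcripts of the oocyte. It measured 42.6 and 58.5 RPKM in the 10–30 µm libraries, 60.1 and 72.1 at 40–45 µm, 66.6 and 75.4 at 50–55 µm, 83.2 and 81.5 at 60–65 µm and 76.5 in GV oocytes. Both 60–65 µm libraries were above every smaller library, and the GV value lay just under them. Its rank among all genes in a library ran from 256th at worst, in the first 10–30 µm library, to 111th at best, and it made up 95.5% to 96.9% of the summed RPKM of the 20 connexins in the table.

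Gja1 was close to the limit of detection. Its values were 0.0519 and 0.0466 RPKM at 10–30 µm, 0.0600 and 0.0388 at 40–45 µm, 0.110 and 0.0688 at 50–55 µm, 0.175 and 0.128 at 60–65 µm and 0.0585 in GV oocytes. The 60–65 µm libraries were the highest, and the GV library was back within the range of the classes under 50 µm. These levels stand for 16 to 72 reads in the growing libraries and 36 reads in GV oocytes, against 7134 to 25554 reads for Gja4. Whether the mates of a pair were counted apart is not stated, so the number of separate fragments behind 16 reads may be smaller.

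Gjc1, connexin 45, another gap junction protein, moved the other way. It was at 0.497 and 0.489 RPKM at 10–30 µm, 0.318 and 0.386 at 40–45 µm, 0.253 and 0.301 at 50–55 µm, 0.181 and 0.230 at 60–65 µm and 0.0978 in GV oocytes. Libraries of the smallest class were above all others and the GV library was below all others, and the 60–65 µm mean was 0.416 times the 10–30 µm mean.

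Cdh1 climbed through every class. Its RPKM was 3.66 and 5.64 at 10–30 µm, 5.56 and 7.22 at 40–45 µm, 8.34 and 10.4 at 50–55 µm, 14.6 and 10.8 at 60–65 µm and 16.2 in GV oocytes. Of neighbouring classes only those of 10–30 and 40–45 µm overlapped, and the 60–65 µm mean was 2.73 times the 10–30 µm mean. Cdh2 climbed from a far lower base: 0.0674 and 0.0756 RPKM at 10–30 µm, 0.129 and 0.0921 at 40–45 µm, 0.195 and 0.184 at 50–55 µm, 0.350 and 0.357 at 60–65 µm and 0.473 in GV oocytes. No 2 classes of Cdh2 overlapped, and the ratio of the 60–65 µm mean to the 10–30 µm mean was 4.95.

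By class means from 10–30 to 60–65 µm Ctnnb1 and Tjp1 varied least. Ctnnb1 lay at 20.9 and 21.0 RPKM at 10–30 µm, 22.2 in both libraries at 40–45 µm, 26.2 and 23.8 at 50–55 µm, 27.8 and 26.2 at 60–65 µm and 29.6 in GV oocytes. Tjp1 was at 4.62 and 6.08 RPKM at 10–30 µm, 5.76 and 6.66 at 40–45 µm, 7.27 and 8.07 at 50–55 µm, 8.36 and 7.48 at 60–65 µm and 9.14 in GV oocytes. For both genes the 60–65 µm libraries overlapped those at 50–55 µm. Reads of Ctnnb1 could in part belong to the same-strand microRNA gene Mir7090, and those of Tjp1 to the same-strand locus Gm44794, both of which lie inside the gene. Ctnnb1 (4930593C16Rik and Ulk4) and Cdh2 (Gm15485) also overlap genes on the opposite strand; the libraries were strand-specific, but the sources used here do not state whether the counting used strand.

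To ask which of these differences exceed the spread between libraries, limma was fitted to log2(RPKM + 0.1) over all 10518 genes that reached 0.5 RPKM in at least 2 of the 8 growing libraries. Gja4, Cdh1, Ctnnb1 and Tjp1 entered this test, and Gja1, Gjc1 and Cdh2 did not reach the filter. From 10–30 to 60–65 µm all 4 tested genes rose, where 32.4% of all genes tested rose and 63.3% changed in either direction. The log2 change was 1.47 ± 0.22 (SE) for Cdh1 (adjusted p = 0.000543, limma), 0.74 ± 0.14 for Gja4 (adjusted p = 0.00234), 0.59 ± 0.13 for Tjp1 (adjusted p = 0.00454) and 0.38 ± 0.092 for Ctnnb1 (adjusted p = 0.0070). Their median was 0.66, beside 0.017 over all genes tested. Without the first 60–65 µm library Ctnnb1 no longer passed (log2 change 0.34, adjusted p = 0.0599).

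Among the 4 members in the limma fit, 1 was called between neighbouring classes, in the step from 10–30 to 40–45 µm. Gja4 rose by 0.52 ± 0.14 on the log2 scale (adjusted p = 0.0336, limma; 16.1% of all genes tested rose and 7.84% fell). Cdh1 (0.59, adjusted p = 0.0825), Tjp1 (0.34, adjusted p = 0.0929) and Ctnnb1 (0.21, adjusted p = 0.143) had positive values that missed the threshold. The call on Gja4 depended on single libraries: it was lost without the first 10–30 µm library (log2 change 0.33, adjusted p = 0.149), without either 40–45 µm library (0.64 and 0.42, adjusted p = 0.0645 and 0.141) and without either 60–65 µm library (0.52 in both, adjusted p = 0.0647 and 0.0649). Without the second 10–30 µm library Cdh1 (0.86, adjusted p = 0.0237) and Tjp1 (0.50, adjusted p = 0.0241) passed as well. In this step the split of all genes into higher and lower depended on scaling, with 1694 higher and 825 lower as reported, 1343 and 1088 with median-of-ratios scaling and 1088 and 1521 without scaling, which shifted the median of all genes from 0.049 to -0.071; Gja4 was then at 0.40 (adjusted p = 0.107).

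From 40–45 to 50–55 µm none of the 4 members passed, where 9.19% of all genes did. Cdh1 had the largest value, 0.50 ± 0.22 (adjusted p = 0.170, limma; unadjusted p = 0.0489), and it was the 1 member under an unadjusted 0.05. This background rests on single libraries, since no gene at all was called without the second 40–45 µm library or without the first 50–55 µm library. From 50–55 to 60–65 µm limma called no member and 0.0% of all genes (1485 of 10518 genes at an unadjusted p under 0.05, none of them a member, and no call by edgeR), although a fit of the 2 classes alone called 78 genes higher and 25 lower, none of them a member. The member values ran from -0.01 for Tjp1 to 0.37 for Cdh1 (adjusted p = 0.488).

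For the 3 low genes the reads recovered from the RPKM steps were tested with edgeR, an analysis added after the data had been seen. The ± values given for edgeR were derived from its F statistic. Over 15092 genes with at least 10 reads in 2 libraries, 30.0% rose and 30.4% fell from 10–30 to 60–65 µm. Cdh2 rose by 2.31 ± 0.20 on the log2 scale (adjusted p = 2.45e-05, edgeR quasi-likelihood test), Gja1 rose by 1.62 ± 0.35 (adjusted p = 0.00379) and Gjc1 fell by 1.24 ± 0.18 (adjusted p = 0.000383), and the other 4 members were called in the same direction as by limma. Limma without a filter on low values (46.5% of 20052 genes called) also called all 3, with smaller changes because 0.1 RPKM was added to values of that size: 1.40 for Cdh2 (adjusted p = 0.000238), 0.74 for Gja1 (adjusted p = 0.0054) and -0.94 for Gjc1 (adjusted p = 0.0023). Between neighbouring classes edgeR called Gja4 and Cdh2 from 10–30 to 40–45 µm (0.72 ± 0.21 for Cdh2, adjusted p = 0.0385; 21.1% of all genes called) and Cdh2 from 40–45 to 50–55 µm (0.74 ± 0.19, adjusted p = 0.0491; 7.47% called).

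**Figure D2:**
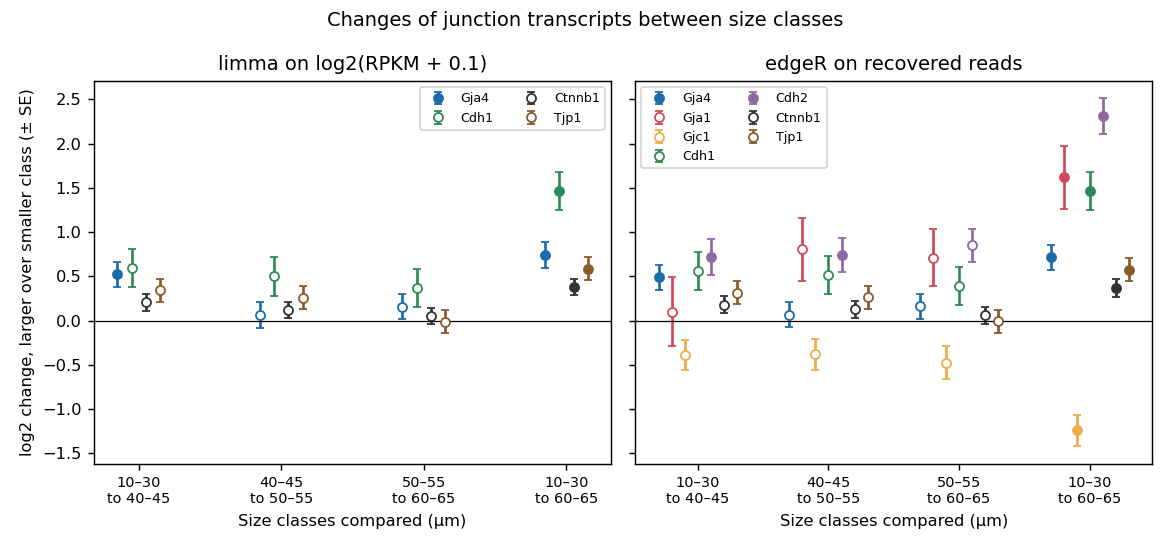
log2 change (± SE) of the junction genes between size classes in µm, larger over smaller class, by limma on log2(RPKM + 0.1) for the 4 genes over the filter (left) and by edgeR on recovered reads for all 7 (right); filled points have an adjusted p under 0.05. The SE of edgeR was derived from its F statistic. Across the whole of growth 6 genes lie above 0 and Gjc1 lies below it at -1.24.

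The oocyte connexin exceeded the granulosa connexin in every library. The ratio of Gja4 to Gja1 RPKM was 822 and 1256 at 10–30 µm, 1001 and 1859 at 40–45 µm, 608 and 1097 at 50–55 µm, 476 and 636 at 60–65 µm and 1308 in GV oocytes. Gja1 was thus between 0.0538% and 0.210% of Gja4, and both 60–65 µm ratios were below those of the classes under 50 µm while they overlapped those at 50–55 µm. Cdh1 exceeded Cdh2 by 30.3-fold to 78.4-fold, a narrower margin, at 54.3 and 74.5 in the smallest class, 43.2 and 78.4 at 40–45 µm, 42.7 and 56.2 at 50–55 µm, 41.7 and 30.3 at 60–65 µm and 34.3 in GV oocytes.

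The 4 libraries under 50 µm were compared with the 4 from 50 µm. With 0.1 RPKM added to each value the Gja4 to Gja1 log2 ratio was 8.59 ± 0.36 (SD, n = 4) under 50 µm and 8.46 ± 0.25 (SD, n = 4) above, a difference of -0.13 (exact two-sided permutation test, p = 0.600, adjusted p = 0.829 over 2 ratios, smallest possible p = 0.0286). The Cdh1 to Cdh2 log2 ratio was 4.85 ± 0.35 and 4.91 ± 0.27 (SD, n = 4 each), a difference of 0.06 (exact permutation p = 0.829). The added 0.1 is above most Gja1 values. With nothing added, a setting tried after the data had been seen, the differences were -0.81 for Gja4 to Gja1 (exact permutation p = 0.0857) and -0.54 for Cdh1 to Cdh2 (exact permutation p = 0.114). The amount added set the size and the sign: the Gja4 to Gja1 difference was -0.67 (exact permutation p = 0.0857) with 0.01 added and 0.31 (exact permutation p = 0.0571) with 1 added, and the Cdh1 to Cdh2 difference was -0.44 (exact permutation p = 0.2) and 0.67 (exact permutation p = 0.0286, or 0.0571 adjusted over the 2 ratios). Leaving out the second 40–45 µm library also turned the sign of the first (0.017), and leaving out the first 10–30 µm, the first 40–45 µm or the second 50–55 µm library turned that of the Cdh1 to Cdh2 difference (-0.059, -0.013 and -0.036).

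Markers of granulosa cells were read beside these ratios. Of 14 granulosa markers 9 stayed under 0.5 RPKM in all libraries and none was at 0 in all. Foxl2, the transcription factor that defines granulosa identity, was at 0.0145 to 0.0642 RPKM, Wt1 at 0.0212 to 0.0487 and follistatin (Fst) at 0.00216 to 0.0256. Amh and Inha, both hormones of growing follicles, were higher from 50 µm: Amh measured 0.0817 to 0.156 RPKM in the 4 libraries under 50 µm, 0.189 to 0.281 in the 4 above and 0.0697 in GV oocytes, and Inha measured 0.136 to 0.239, 0.377 to 0.542 and 0.168 (these genes were picked after their values had been seen). Gja1 was likewise higher in the 60–65 µm class and lower in GV oocytes. Other markers of the list went the other way in GV oocytes, with Kitl, the Kit ligand, at 0.907 RPKM (0.495 and 0.409 at 60–65 µm), Fshr at 0.286 (0.238 and 0.229) and Inhba at 0.0382 (0.0144 and 0.0307). In all, 6 of the 14 markers were higher in GV oocytes than their 60–65 µm mean and 8 were lower. Cdh2 was not lower in GV oocytes, at 1.34 times its 60–65 µm mean, against 0.386 times for Gja1. The part of somatic RNA in the rise of Gja1 or Cdh2 was not tested.

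Across growth edgeR on recovered reads called 8 of 12 tested granulosa markers higher and 0 lower, where 30.0% of all genes rose and 30.4% fell. Amh and Inha were among the 8, and 1 of them, Fshr, reached 10 reads in only 1 of the 10–30 µm libraries. The 3 most abundant led the list. Nr5a2 (1.29 to 4.81 RPKM), Esr2 (0.525 to 5.17) and Cyp19a1 (0.159 to 1.25) rose across growth (log2 changes 1.61, 2.78 and 2.26, adjusted p = 1.9e-05, 2.53e-05 and 8.63e-06, limma), Cyp19a1 having reached the filter only through the classes from 50 µm, where it was high, and all 3 were higher still in GV oocytes, at 5.56, 6.41 and 2.53 RPKM. They made the summed level of the list rise from 2.95 and 3.15 RPKM at 10–30 µm to 13.3 and 11.9 at 60–65 µm and 16.3 in GV oocytes. Without them the other 11 summed to 0.738 to 0.952 RPKM under 50 µm, 1.52 to 2.11 from 50 µm and 1.77 in GV oocytes, of which Kitl made 0.907.

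Markers of other ovarian cells were mostly low. The 12 theca and stroma markers summed to 3.09 and 2.24 RPKM at 10–30 µm and to 0.733 to 1.63 in the larger classes, led by the collagen genes Col1a1, at 1.63 and 1.16 in the smallest class and 0.0761 in GV oocytes, and Col1a2, at 0.818 and 0.538 and then 0.0515. The list did not move one way: with edgeR 3 of 10 tested were higher at 60–65 than at 10–30 µm and 3 were lower, where 30.0% and 30.4% of all genes were. The steroidogenic genes Cyp11a1, Hsd3b1 and Star were the 3 higher ones (log2 changes 4.03, 1.79 and 1.51, adjusted p = 0.00108, 0.00422 and 0.0145), each at or under 0.344 RPKM, and of the 6 called genes Cyp11a1, Star and 1 of the lower ones passed the read filter only through the classes in which they were high. The endothelial list rose from 1.27 and 1.29 to 6.45 and 5.73 RPKM and was led by Pecam1 (0.531 to 4.70 in growing oocytes, 5.68 in GV). Of 6 endothelial markers tested with edgeR 5 were higher at 60–65 than at 10–30 µm, beside 30.0% of all genes: Tek (1.19 and 1.11 RPKM at 60–65 µm), Tie1 (0.383 and 0.254), Kdr (0.0288 and 0.0372) and Cldn5 (0.0807 and 0.0469) with Pecam1. Kdr and Cldn5 had 10 reads in no 10–30 µm library and so could hardly have been called other than higher, while Cdh5, the defining cadherin of endothelium, stayed at or under 0.0101. Blood and macrophage markers summed to at most 0.445 RPKM, with Cd68 at 0.264, Hba-a1 at 0.0337 and Lyz2 at 0.0118 on average over the growing libraries. Surface epithelium markers summed to 0.0682 and 0.0919 RPKM at 10–30 µm and 0.571 and 0.628 at 60–65 µm. Their highest sum was 0.738 in GV oocytes, of which Upk3b made 0.718. With edgeR Upk3b, 1 of 2 tested, was higher at 60–65 than at 10–30 µm, beside 30.0% of all genes. Lgr5 and Krt7 averaged 0.00763 and 0.00259.

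**Figure D3:**
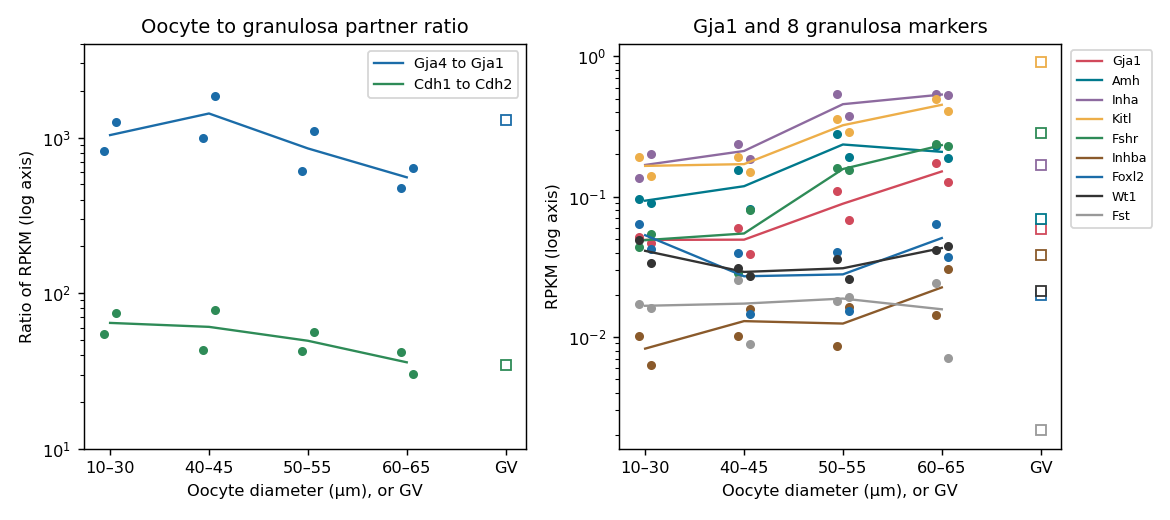
Left, ratio of RPKM of Gja4 to Gja1 and of Cdh1 to Cdh2 (log axis) and, right, RPKM of Gja1 and of 8 granulosa markers under 1 RPKM (log axis), against oocyte diameter class in µm; filled points are single libraries, lines join means of 2 libraries and open squares are the GV library. Gja4 stays 476 to 1859 times above Gja1, and on the right Gja1, Amh and Inha are lower in GV oocytes than at 60–65 µm, whereas Kitl, Fshr and Inhba are higher.

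Other members of the connexin family were scarce. Of 20 other connexins and pannexins only 3 reached the filter: Gjb1, connexin 32, rose from 0.336 and 0.575 RPKM to 1.60 and 1.37 (log2 change 1.56 ± 0.19, adjusted p = 0.00018, limma), with 2.09 in GV oocytes. Only 1 of the 10–30 µm libraries of Gjb1 was at 0.5 RPKM, so that it too passed the filter through the larger classes, where it was high. Panx1, a channel protein of the plasma membrane, fell slightly, from 5.45 and 6.13 to 4.68 and 4.62 RPKM (-0.29, adjusted p = 0.0243), a call lost without any 1 of the second 10–30 µm library, the 50–55 µm or the 60–65 µm libraries (adjusted p = 0.0500 to 0.0989). Gjb2 had a value of -0.25 (adjusted p = 0.201). With edgeR on recovered reads, the test called 6 of 10 connexins and pannexins higher and 1 lower, where 30.0% of all genes rose and 30.4% fell, but 4 of the 6 had 10 reads in no 10–30 µm library.

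Among the 15 other classical cadherins 4 reached the filter and all 4 rose, where 32.4% of all genes tested did: Cdh4 (1.38 ± 0.23), Cdh3 (1.28 ± 0.16), Cdh20 (1.17 ± 0.12) and Cdh24 (0.77 ± 0.16; adjusted p = 0.00115, 0.000215, 7.59e-05 and 0.0036, limma). Cdh20 reached the filter only through the 60–65 µm libraries and Cdh4 only from 40–45 µm, so that these 2 could hardly have been called other than higher, which holds too for Ptprm, Ctnna3 and Cldn15 in the lists that follow and, in the other direction, for Cldn6. With edgeR on recovered reads 7 of 9 cadherins were higher and 1 was lower, beside 30.0% and 30.4% of all genes, although 2 of the 7, Cdh8 and Cdh18, and the lower one, Cdh11, passed the read filter only through the classes in which they were high. Cdh11 fell (0.0835 and 0.0880 RPKM at 10–30 µm, 0.0180 and 0.0197 at 60–65 µm; log2 change -2.15, adjusted p = 0.000689). P-cadherin (Cdh3) was the most abundant cadherin of the list, at 5.06 and 7.25 RPKM at 10–30 µm and 15.6 and 13.8 at 60–65 µm. It was above Cdh1 in all 8 growing libraries, by 1.07-fold to 1.5-fold, and below it in GV oocytes (13.6 against 16.2 RPKM, a ratio of 0.836).

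Catenins and the proteins that link nectins and cadherins to actin were divided. Of 18 listed genes 11 were tested, and 5 rose, 1 fell and 5 did not pass, where 32.4% of all genes tested rose and 63.3% changed. With edgeR on recovered reads 5 of 16 were higher and 5 lower, beside 30.0% and 30.4% of all genes. The receptor phosphatase Ptprm (2.21 ± 0.18), α-T-catenin (Ctnna3, 1.09 ± 0.12), p120-catenin (Ctnnd1, 0.59 ± 0.15), α-E-catenin (Ctnna1, 0.59 ± 0.096) and Nectin3 (0.46 ± 0.12) rose, and plakophilin 2 (Pkp2), a desmosomal plaque protein, fell by 1.33 ± 0.13 (adjusted p = 6.93e-05, limma). Ctnnd1 lost its call without the first 10–30 µm library (adjusted p = 0.0509) or the first 60–65 µm library (adjusted p = 0.0737). Afadin (Afdn), at 10.4 RPKM on average the most abundant of the list, had a value of -0.22 (adjusted p = 0.270) and Pkp4 one of 0.12 (adjusted p = 0.364). The list's median was 0.12.

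Of 30 tight junction genes 16 were tested, and 9 rose, 2 fell and 5 did not pass, where 32.4% of all genes tested rose and 63.3% changed. With edgeR on recovered reads 12 of 23 were higher and 4 lower, beside 30.0% and 30.4% of all genes, although 2 of the 12 and 1 of the 4 passed the read filter only through the classes in which they were high. Among the 16 genes of the limma fit Cldn15 (2.43 ± 0.21), cingulin (Cgn, 1.73 ± 0.20), Cldn8 (1.64 ± 0.13) and the polarity kinase Prkci (1.24 ± 0.13) rose most. Cldn6 fell by 1.78 ± 0.27 (adjusted p = 0.00067, limma) and occludin (Ocln) fell by 0.42 ± 0.096 (adjusted p = 0.00489). Cldn4 was the most abundant claudin, at 12.8 to 17.2 RPKM, and rose by 0.36 ± 0.087 (adjusted p = 0.00691), a call lost without the second 60–65 µm library (adjusted p = 0.0529). The polarity scaffold Pard3 had a value of -0.09 (adjusted p = 0.529).

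**Figure D4:**
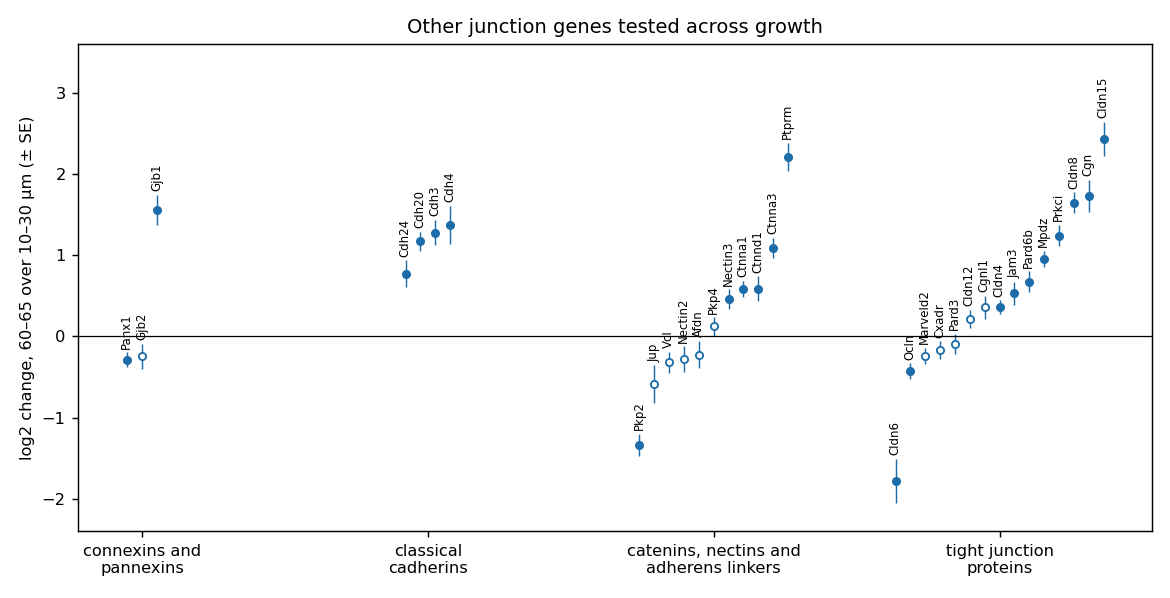
log2 change (± SE) from 10–30 to 60–65 µm, by limma, of the other junction genes that reached 0.5 RPKM (1 tight junction gene is not drawn), ordered by value within its list; filled points have an adjusted p under 0.05. All 4 cadherins lie above 0, Cldn15 is highest at 2.43 and Cldn6 lowest at -1.78.

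The genes whose course over the 8 growing libraries was most like that of a member were found by Pearson's r among the tested genes whose class means spanned at least 1 log2 unit, as a description only. They were Prickle3, Adm2 and Efnb2 for Gja4 (r = 0.995, 0.992 and 0.989; pool of 2033 genes). For Cdh1 they were Ambra1, Usp10 and Mxd1 (r = 0.996, 0.994 and 0.994; pool of 2032 genes). For Gja1, at its low level, they were BC147527, Serpinb1c and Gm14222 (r = 0.988, 0.985 and 0.984), which had mean levels of 0.338, 0.368 and 0.356 RPKM. The 8 libraries share their size classes, so that any gene rising with diameter correlates.

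DNA methylation, which the oocyte lays down late in growth and mainly over transcribed gene bodies, was low at the starts of the junction genes. In the PBAT library of 60–65 µm oocytes, over cytosine positions with at least 5 reads within 1 kb of the start, methylation averaged 7.98% at Gja4 (41 positions, 334 calls), 4.03% at Gja1 (17 positions, 121 calls), 2.48% at Gjc1, 4.88% at Cdh1, 2.23% at Cdh2 and 3.24% at Tjp1. The median over 19680 genes was 3.87%, and Gja4 was the highest member in this library. RRBS of the same size class had the Gja4 start at 0.551% and 0.208%, which was not the highest. Pooled over calls Gja4 was at 7.19% (95% Wilson interval 4.88% to 10.5%, which covers counting error only). No position within 1 kb of the annotated start of Ctnnb1 had 5 reads (with 1 read as the minimum the PBAT library held 35 calls over 25 positions there, at 0.0%), and its RefSeq promoter window at chr9:120933150-120933449 was at 2.79% over 24 positions, with a second, overlapping window at chr9:120933328-120933627 at 5.52% over 40 positions. In the promoter windows printed above, 16 positions were read at Gja4 (7.61%) and 45 at Tjp1 (2.80%). Positions count the cytosines of either strand, so that the 16 at Gja4 are not full coverage of its 16 CpGs. No position of the 8 CpGs at Gja1 had 5 reads in any library, so that its methylation there is unknown.

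The gene bodies split into a higher and a lower set. Tjp1 (26.6%), Cdh1 (23.6%) and Ctnnb1 (19.6%) were above the median of 15.7% over 20923 genes, and Gjc1 (13.3%), Cdh2 (7.77%), Gja4 (7.34%) and Gja1 (5.05%) were below it, with 5 reads as the minimum. Of the 4 genes over the RNA filter, 3 were in the higher set; Gja4, a gene of 2619 bases, was in the lower. The place of Gjc1 depended on the minimum of reads: at 19.7% with 1 read and 18.5% with 10 it was above the median of all genes (16.5% and 16.1%), and that of Tjp1 was 36.9% and 38.1%. There was 1 PBAT library, so that these values have no replicate check.

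RRBS favours GC-rich sequence, and a body was taken from the start to the end of the gene, its start region included. In the first 60–65 µm library Cdh2 had 99 body positions and 99 within 1 kb of its start, and Tjp1 63 and 83. At 60–65 µm the body of Ctnnb1 was at 19.6% in PBAT but 1.03% and 0.834% in RRBS. That of Tjp1 was at 26.6%, against 6.92% and 3.42%. The part of coverage in these values was not tested. With 5 reads as the minimum Cdh1 had the highest mean RRBS level of the 7 gene bodies in each class. Its body was at 1.99% and 2.96% at 40–45 µm, 7.45% and 6.69% at 50–55 µm and 13.5% and 22.9% at 60–65 µm, over 38 to 67 positions, with no overlap between classes. This held with a minimum of 10 reads but not of 1 read, where the body was at 26.8% and 14.5% at 50–55 µm and 19.2% and 19.0% at 60–65 µm. Tjp1 (0.954% and 0.186% at 40–45 µm, 6.92% and 3.42% at 60–65 µm) and Gjc1 (1.00% and 1.18%, then 3.58% and 4.24%) also had higher values in the largest class. For Tjp1 this was lost with other minima: with 1 read the first 40–45 µm library, at 7.40%, was above both 60–65 µm libraries (4.59% and 6.43%), and with 10 reads the second 60–65 µm library, at 0.895%, was below the first at 40–45 µm (1.15%). The bodies of Gja4, Gja1, Cdh2 and Ctnnb1 reached at most 4.6% in any RRBS library with 5 reads as the minimum, but with 1 read Cdh2 was at up to 18.5%, Gja1 at up to 17.3%, Ctnnb1 at up to 7.43% and Gja4 at up to 7.35%, each in a 50–55 µm library. At 60–65 µm the median body of all genes was at 2.50% and 2.38% with 5 reads as the minimum. At 50–55 µm it was at 1.72% and 2.93% with 5 reads, but at 18.7% and 4.55% with 1 read. The peaks of Cdh2, Gja1 and Ctnnb1 with 1 read came from the first 50–55 µm library and lay under its median. That of Gja4 came from the second and lay above the median there. At gene starts Gja1 and Ctnnb1 had too few positions for a value in RRBS with 5 reads as the minimum. None of the other members passed 1.83% there except Cdh1 in the second 60–65 µm library, at 12.6%, against 1.21% in the first. That Cdh1 value fell to 1.17% with a minimum of 10 reads and to 0.981% within 500 bases of the start. The bound was not kept in other settings: Tjp1 reached 2.36% at 60–65 µm with 1 read and Gjc1 2.71% at 50–55 µm within 500 bases.

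**Figure D5:**
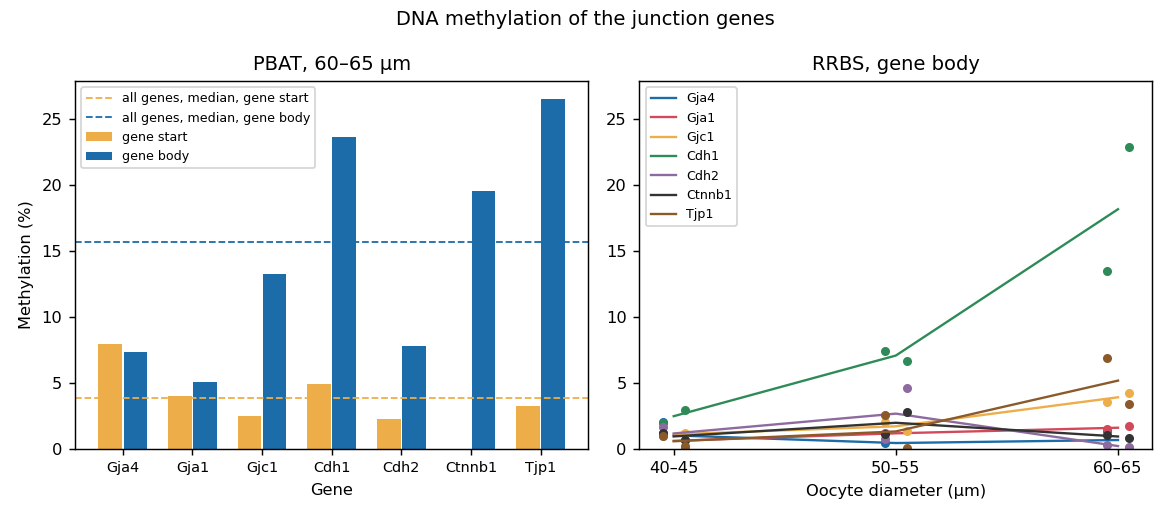
Methylation in percent of the junction genes: left, PBAT of 60–65 µm oocytes at gene starts (1 kb either side) and over gene bodies, with dashed lines at the median of all genes (no start value for Ctnnb1); right, RRBS of gene bodies by diameter class, with points for single libraries and lines through the class means. Cdh1 rises from 1.99% and 2.96% to 13.5% and 22.9% in RRBS, and the starts stay at or under 7.98% in PBAT.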

How the data were processed

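RNA-seq (9 libraries), RRBS (6) and PBAT (1) were analysed. The RNA table holds RPKM values that the authors deposited; the submitters' processing notes name TopHat2 2.0.9 and GRCm38, the study's methods name Cufflinks (FPKM of transcripts) and SeqMonk, and which of them made this table is not stated. The methylation files hold the percent methylation per position with methylated and unmethylated read counts that the authors called with Bismark (0.14.0 and 0.10.0) after Trim Galore. Groups came from the sample labels, and all 9 RNA columns were used.

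Gene changes were tested with limma 3.58.1 on log2(RPKM + 0.1) after trimmed-mean scaling, for genes at 0.5 RPKM or more in 2 of the 8 growing libraries, in 1 fit, with Benjamini-Hochberg adjustment over all genes tested and a threshold of 0.05; GV was not tested. A fold change on this scale understates the change of low genes. Whole reads were recovered from RPKM steps and tested with edgeR 4.0.16 as an added alternative. The implied exon length was whole in 99.7% of tested genes, within 0.05 base and an allowance that grew with length. Of 1032 tested genes with 1 annotated transcript, 564 gave the annotated length. Ratios were tested by exact permutation (scipy 1.17.1). Methylation is the mean over positions with at least 5 reads, with at least 5 positions at a start and 10 in a body; values were not tested. The fits were tested on simulated data. Members and gene lists were chosen with earlier results of these data known. Named genes are the members; of each junction list up to 5 called genes with the largest change and the 3 most abundant; the 3 most abundant of each marker list, and the 3 genes most like Gja4, Gja1 and Cdh1. Other genes are named beyond this rule where a count or a defining marker called for it (Foxl2, Wt1, Fst, Amh, Inha, Kitl, Fshr, Inhba, Cdh5, Cdh8, Cdh11, Cdh18, Kdr, Cldn5, Cyp11a1, Star, Nectin3 and Ocln), chosen after their values were seen. Some genes of the lists enter the counts but are not reported here. Alternatives covered pseudocount, filter, scaling, samples in the fit, variance trend, replicate block, single libraries left out, minimum reads and start window.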

Additional observations from a re-analysis of the deposited data

How the results depend on the processing

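The count of members called from 10–30 to 60–65 µm was 4 of 4 under other pseudocounts, scalings, a filter of 1 RPKM, no variance trend, a fit of the 2 classes alone and the replicate block, 3 or 4 with single libraries left out, and 7 of 7 without a filter on low values or with edgeR on recovered reads, both of which test 7 members by construction. From 10–30 to 40–45 µm the count of 1 became 0 without a filter, without scaling or with the 2 classes alone, 2 with edgeR and 0 to 3 with single libraries left out. From 40–45 to 50–55 µm it stayed 0 except 1 with edgeR, and with single libraries left out it stayed at 0; from 50–55 to 60–65 µm it was 0 in all alternatives run. Where not stated above, the cause was not tested.

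Libraries with the same letter in the labels (A or B, the first and second library of a class) deviated together among the 3 smaller classes (r of the A to B differences 0.60, 0.59 and 0.67) but not with the 60–65 µm class (r = -0.23, -0.026 and 0.11), so the letters were not taken as pairs. With the replicate block the counts were 4, 2, 0 and 0 members, the second being Gja4 and Cdh1 (adjusted p = 0.0495), and the 2 ratio differences had exact permutation p-values of 0.444 and 0.833 over the 36 arrangements within letters, which cannot give a p under 0.0556. Over all genes the block gave 2205 higher and 1155 lower in the first step (1694 and 825 without it), 977 and 947 in the second (545 and 422) and 133 and 95 in the third (0 without it).

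The Gja4 to Gja1 difference of log2 ratios turned from -0.13 to 0.31 with a pseudocount of 1 and lay between -0.28 and 0.017 with single libraries left out; the Cdh1 to Cdh2 difference turned from 0.061 to -0.44 with 0.01 and -0.54 with no pseudocount (added after the data had been seen), was 0.67 with 1 (exact permutation p = 0.0286, 0.0571 adjusted over the 2 ratios) and lay between -0.059 and 0.20 with single libraries left out. Values near 0 that changed sign with single libraries left out were those of Gja4 from 40–45 to 50–55 µm (-0.060 to 0.16), Ctnnb1 (-0.0094 to 0.13) and Tjp1 (-0.085 to 0.066) from 50–55 to 60–65 µm, and Afdn (-0.45 to 0.0024) and Pard3 (-0.24 to 0.057) across growth; none of them was past the threshold. Tjp1 in its step was also 0.044 without scaling and 0.014 with median-of-ratios scaling. The median PBAT methylation of the 7 gene bodies was 13.3%, 19.7% with at least 1 read per position and, over the 6 bodies then left with a value, 17.8% with at least 10.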
